A study of Rattus norvegicus with 24 samples.

Results

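The comparison set the forebrain of rats given 5 mg/kg D-serine, the lowest dose of the study, against that of rats given 500 mg/kg, the highest. It used 4 arrays at 5 mg/kg and 3 at 500 mg/kg, which makes 7 of the 24 arrays of the study. They were taken by their titles, and 1 further array titled 500 mg/kg (called replicate 4) was left out before normalization. In all 6 groups the animals were male F344 rats, an inbred strain, aged 11 to 12 weeks. Each rat received a single dose of vehicle (labelled 0 mg/kg) or of 5, 20, 50, 200 or 500 mg/kg D-serine and was killed 96 hours later. Total RNA of a forebrain piece of about 30 mg per rat was hybridised to an Affymetrix rat array with 31099 probe sets, each a group of short probes for 1 transcript. The labels give an animal number to every array, so replicates are separate rats, and they do not say which part of the forebrain the piece came from. In bulk tissue, fewer cells of a type and less RNA per cell cannot be told apart.

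D-serine is made from L-serine by serine racemase and broken down by D-amino acid oxidase. In the forebrain it occupies the co-agonist site of NMDA receptors, which open only when glutamate and a co-agonist are bound together and which let calcium into the neuron. Calcium entry through them acts on calmodulin-dependent kinases, on AMPA receptor traffic at the synapse and on the transcription of immediate-early genes.

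Levels are log2(intensity + 16) after quantile normalization, and every difference is the 5 mg/kg mean minus the 500 mg/kg mean, so a positive difference is higher at 5 mg/kg. A probe set or gene passed where its adjusted p in limma was under 0.05. The 500 mg/kg array left out correlated with the other arrays at a median of 0.857, against 0.957 to 0.971 for the other 23. On it the cerebellar granule cell gene Gabra6 read 10.73 against 4.40 to 5.98 elsewhere, and the Purkinje cell gene Pcp2 read 12.34 against 5.91 to 6.86. Nrgn, a gene of forebrain excitatory neurons, read 6.41 on that array and 10.82 to 11.77 on the rest. On the 7 arrays compared, Slc17a7, the vesicular glutamate transporter of cortical neurons, read 9.96 to 10.55, Neurod6 read 8.49 to 9.50 and the striatal gene Ppp1r1b read 8.56 to 10.01. On the array left out these 3 genes read 9.14, 8.25 and 8.71, so Ppp1r1b there lay within the range of the 7 arrays.

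A measure of the RNA itself separated the 2 doses. The array carries control probe sets at the 3' and the 5' end of a few transcripts, and a higher 3' to 5' ratio means that less of the 5' end was labelled. The log2 ratio of Gapdh was 0.26, 0.23, 0.07 and 0.15 on the 4 arrays at 5 mg/kg and 0.79, 0.67 and 0.68 on the 3 at 500 mg/kg, a difference of -0.54. That of beta-actin was 1.84, 1.80, 1.59 and 1.55 against 2.26, 2.28 and 2.59, a difference of -0.68. Both groups lay fully apart in both ratios (exact permutation p = 0.0286 each, counting differences at least as large in either direction, the smallest that 4 against 3 arrays allow, and 0.0429 after adjustment over 3 controls). The hexokinase ratio was 1.49 ± 0.31 (SD, n = 4) against 1.71 ± 0.26 (SD, n = 3), with an exact permutation p of 0.314. Over the 6 groups the Gapdh ratio averaged 0.77 in vehicle, 0.18, 0.19, 0.31 and 0.56 at 5, 20, 50 and 200 mg/kg, and 0.72 at 500 mg/kg. Animal numbers run along the same series, from 243 to 246 in vehicle and 247 to 251 at 500 mg/kg through the falling doses to 267 to 271 at 5 mg/kg. Any order of handling that followed those numbers cannot be told apart from the dose.

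**Figure D1:**
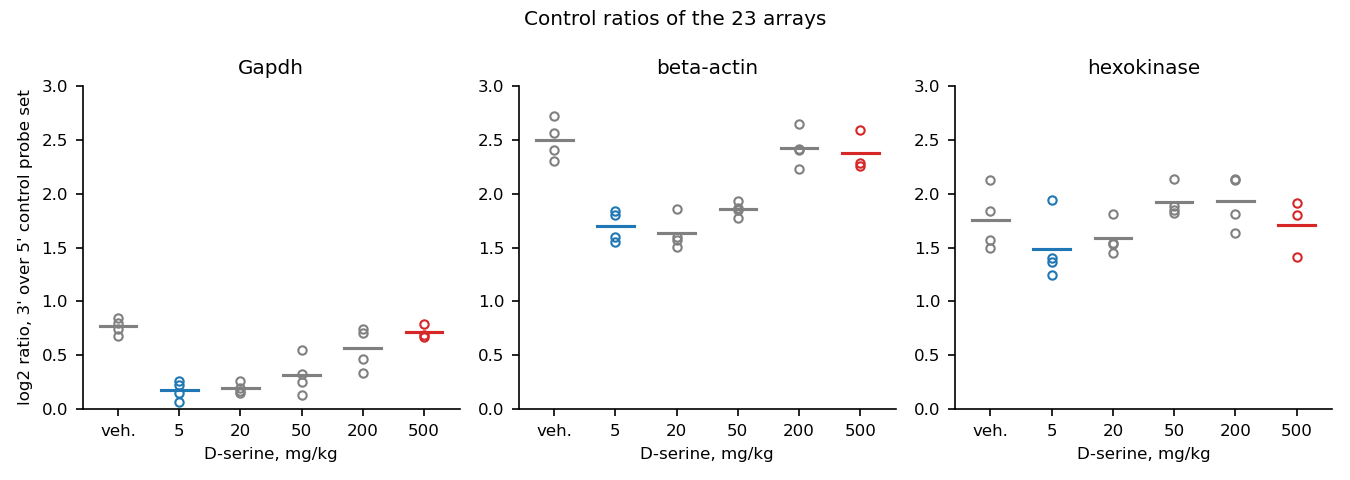
Log2 of the 3' over the 5' control signal for Gapdh, beta-actin and hexokinase on each of 23 arrays (circles) by dose in mg/kg, with group means as lines. Gapdh and beta-actin at 5 mg/kg (blue) lay below all 3 arrays at 500 mg/kg (red), and vehicle lay with 500 mg/kg.

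Between 5 and 500 mg/kg, 95 of 10207 genes passed, each gene standing for its brightest probe set. The Ras activator Rasgrp1 was 2.01-fold higher at 5 mg/kg, and the vesicle calcium sensor Syt1, the AMPA receptor assembly factor Frrs1l and the pericyte gene Rgs5 were 1.76-fold, 1.93-fold and 1.65-fold higher. The membrane protein gene Ttyh1 was 1.56-fold lower, and the calcium/calmodulin kinase subunit Camk2a and the sodium channel gene Scn3a were 1.39-fold and 1.43-fold lower. In the 7 fits that each leave out 1 array compared, Rasgrp1, Rgs5 and Ttyh1 passed every time. Frrs1l passed in 5 of them, Scn3a in 4, Camk2a in 2 and Syt1 in 1. No NMDA receptor subunit and no gene of D-serine synthesis or transport passed. Of the genes that passed, 59 were higher at 5 mg/kg (0.578% of those tested) and 36 were lower (0.353%).

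Over probe sets, 357 of 18625 passed, which is 1.92%, with 283 higher (1.52%) and 74 lower (0.397%) at 5 mg/kg. Before adjustment 2647 probe sets had a p under 0.05, against the 931 expected if none differ. The arrays of the 2 doses did not overlap for any of the 95 genes that passed, and they did not overlap for 13.7% of all genes tested. Higher genes differed by a median of 0.53 and lower genes by -0.45 on the log2 scale. Leaving out single arrays lowered the total counts of genes and probe sets that passed. Without 500 mg/kg replicate 1, 2 or 3, 23, 33 and 26 genes passed, and 126, 161 and 155 probe sets. At 5 mg/kg 85, 62, 36 and 60 genes passed without replicate 1, 2, 3 or 4, and 355, 245, 178 and 261 probe sets. All 95 genes kept their sign in these fits, and 10 passed without each of the 7 arrays in turn. With median centring in place of quantile normalization 54 genes were higher and 12 lower, so 81.8% of the calls were higher in place of 62.1%.

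Rasgrp1, an exchange factor that loads Ras with GTP on calcium and diacylglycerol signals, was among those 10 genes. It read 8.94, 9.27, 9.14 and 8.93 at 5 mg/kg and 7.96, 8.34 and 7.89 at 500 mg/kg. The lowest array at 5 mg/kg lay 0.59 above the highest at 500 mg/kg, and the difference was 1.01 ± 0.16 (SE, adjusted p = 0.00232). A second, dimmer Rasgrp1 probe set also passed, with a difference of 0.78. Vehicle arrays read 7.71 to 8.04, with 500 mg/kg and not with 5 mg/kg.

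Rgs5, which speeds GTP hydrolysis by G protein alpha subunits and marks pericytes, read 7.29, 7.29, 7.75 and 7.62 against 6.69, 6.64 and 6.95. Its difference was 0.73 ± 0.13 (SE, adjusted p = 0.00543), and the vehicle arrays, at 7.04 to 7.17, fell in the gap between the 2 doses. Of the 9 measured markers of smooth muscle and pericytes Rgs5 alone passed. The list's median difference was 0.12 and 5 of its members were above 0.

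The other genes that passed without each array in turn were Eef1a2, Gnb1, Faim2, Arl1, Skp1 and Clta among the higher genes and Ttyh1 and Rap1gds1 among the lower ones. Apart from Clta, Ttyh1 and Rap1gds1 they lie outside the naming rule and were chosen after their values were seen. Eef1a2, the translation elongation factor of neurons and muscle, read 10.72, 10.39, 10.25 and 10.52 against 9.86, 9.78 and 9.95, a difference of 0.61 ± 0.10 (SE). Faim2, an inhibitor of Fas-mediated cell death, differed by 0.60 ± 0.11, and Arl1, a small GTPase of the trans-Golgi, by 0.58 ± 0.10. Skp1, the adaptor of SCF ubiquitin ligases, differed by 0.37 ± 0.07, and its 4 arrays at 5 mg/kg, 11.43 to 11.53, lay above 11.06 to 11.15 at 500 mg/kg. Clta, clathrin light chain A, read 10.77, 10.78, 10.75 and 10.75 against 10.47, 10.43 and 10.41.

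Gnb1, a G protein beta subunit, was called both ways. Its brightest probe set was higher at 5 mg/kg by 0.60 ± 0.10 (SE, adjusted p = 0.0033), with 11.72, 11.79, 12.03 and 11.88 against 11.17, 11.29 and 11.30. A dimmer probe set for it was lower by -0.84 ± 0.13 (SE, adjusted p = 0.00226), with 9.71, 9.44, 9.12 and 9.32 against 10.28, 10.24 and 10.20. Another dimmer probe set gave 0.34 without passing (adjusted p in limma = 0.114). No single direction can be given for Gnb1 from these 3 probe sets.

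Other genes with large positive differences varied more between arrays. Lst1, a transcript of myeloid cells, had the largest difference of the genes, 1.16 ± 0.28 (SE, adjusted p = 0.0323), from 6.79, 6.75, 6.38 and 6.44 against 6.14, 5.47 and 4.68. Its 500 mg/kg arrays spread widely, and without replicate 3 of that dose the difference was 0.78 and did not pass. Vehicle arrays of Lst1 read 5.82 to 7.10 and so spanned the values at 5 mg/kg. Microglia markers, to which Lst1 does not belong, had a median difference of 0.05 over 10 measured members, with 0 passing.

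Frrs1l, which is needed for the assembly of AMPA receptors, read 7.11, 7.13, 7.37 and 6.90 at 5 mg/kg and 5.82, 5.84 and 6.87 at 500 mg/kg. Of the 500 mg/kg arrays 1 lay within 0.03 of the lowest at 5 mg/kg, and the difference was 0.95 ± 0.18 (SE, adjusted p = 0.00713). Cyria, which binds the small GTPase Rac1, read 6.94, 7.31, 7.67 and 7.19 against 6.16, 6.56 and 6.49, a difference of 0.88. Entr1, a protein of endosomal sorting, read 6.38, 6.65, 7.04 and 6.88 against 5.68, 5.81 and 6.02. For all 3 genes the groups were apart, as for every gene that passed, with Entr1 at a difference of 0.90 ± 0.18 (SE). Cyria passed in 1 of the 7 fits that leave out 1 array, Frrs1l in 5 and Entr1 in 6.

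The remaining genes of the 14 with the largest positive differences were Cnbd2 at 0.94, Syt1 at 0.82, Actr2-ps1 and Rgs5 at 0.73, Tpgs1, a subunit of the tubulin polyglutamylase, at 0.69, Akirin2 at 0.68, Ifitm3 at 0.67, Ccdc102a at 0.63 and Ghitm, of the inner mitochondrial membrane, at 0.63. Actr2-ps1 carries the symbol of a pseudogene of Actr2, and its probes may not separate the 2. Without 500 mg/kg replicate 3 its difference was 0.48, and without 500 mg/kg replicate 2 that of Cnbd2 was 0.60, neither passing. Cnbd2 passed in 2 of the 7 fits that leave out 1 array and Actr2-ps1 in 3, and another probe set for Cnbd2 gave -0.10. Ifitm3, an interferon-induced antiviral protein, read 7.15, 7.30, 7.63 and 7.85 at 5 mg/kg and 6.59, 6.97 and 6.88 at 500 mg/kg. Vehicle arrays of Ifitm3, at 7.34 to 7.59, lay with 5 mg/kg, unlike those of Rasgrp1. It alone of 10 measured interferon-induced genes passed, and the list's median difference was 0.09.

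**Figure D2:**
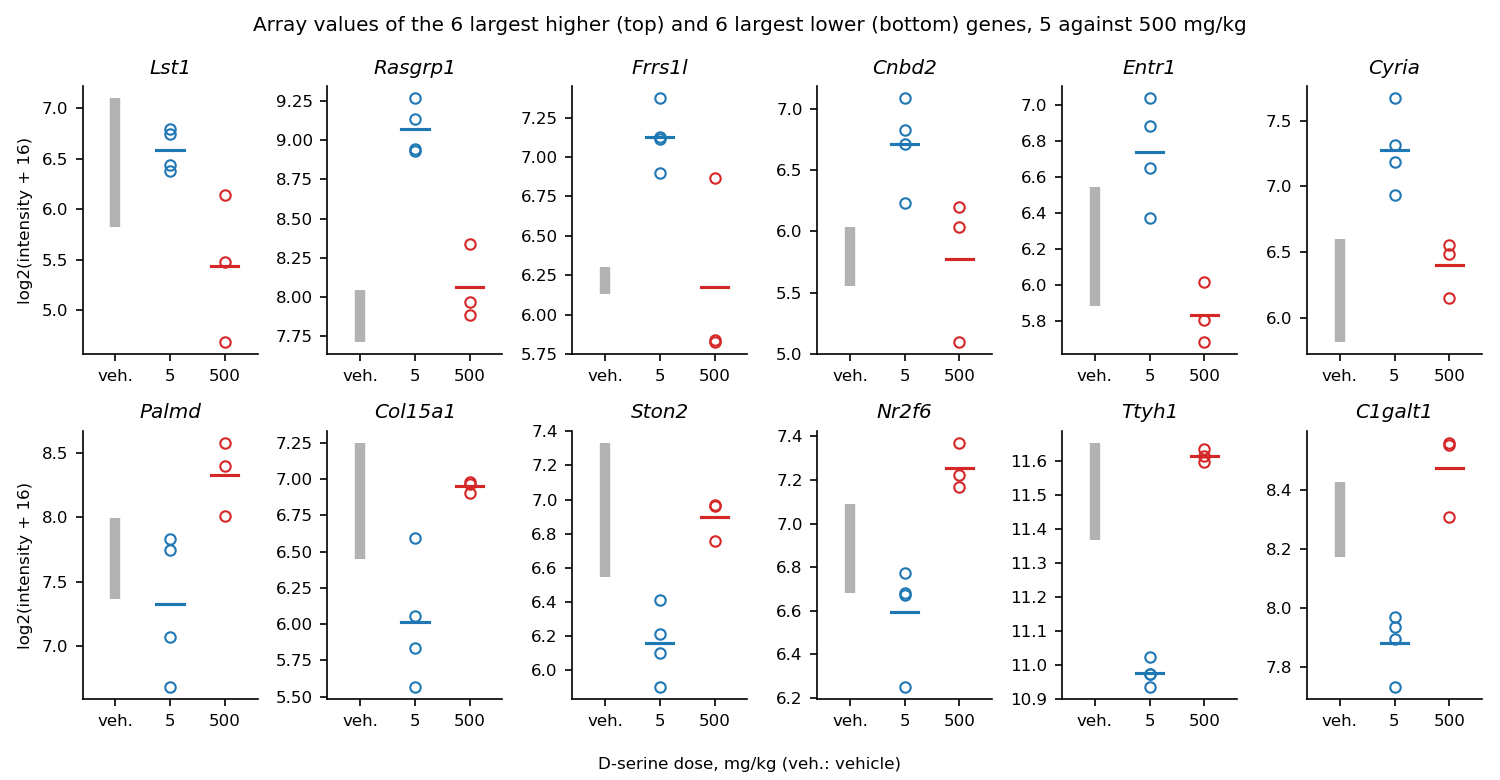
Level in log2(intensity + 16) of the 6 genes with the largest positive (top) and the 6 with the largest negative (bottom) differences that passed: circles are arrays, lines group means (n = 4 at 5 mg/kg, n = 3 at 500 mg/kg) and grey bars the range of the 4 vehicle arrays. Each panel has its own vertical scale, which does not start at 0, and the 5 and 500 mg/kg arrays do not overlap in any panel.

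Among the lower genes Ttyh1 had the smallest adjusted p of the 95 genes. Ttyh1, a tweety-family membrane protein of neural cells, read 11.02, 10.93, 10.97 and 10.97 at 5 mg/kg and 11.60, 11.61 and 11.64 at 500 mg/kg. The difference was -0.64 ± 0.09 (SE, adjusted p = 0.000913), larger than the range within either group. Vehicle, at 11.37 to 11.65, was on the side of 500 mg/kg. Other probe sets for Ttyh1 were lower too, by -0.30, -0.16 and -0.13, without passing.

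Rap1gds1, which promotes nucleotide exchange on small GTPases, read 8.85, 8.69, 8.67 and 8.54 against 9.41, 9.26 and 8.99, a difference of -0.53 ± 0.09 (SE, adjusted p = 0.00423). Col15a1, a basement membrane collagen, read 6.60, 5.57, 6.05 and 5.83 against 6.97, 6.98 and 6.90. The 500 mg/kg arrays of Col15a1 agree within 0.08, and the 5 mg/kg arrays span 1.03. Palmd, a paralemmin-family protein, read 6.68, 7.74, 7.07 and 7.83 against 8.01, 8.58 and 8.40 and had the largest negative difference, from a mean of 8.33 to one of 7.33 with a standard error of 0.25 (adjusted p = 0.0327). Its other probe sets gave -0.06 and 0.07, so the Palmd value rests on 1 probe set.

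Camk2a, the alpha subunit of the kinase that NMDA receptor calcium activates, read 11.66, 11.38, 11.36 and 11.23 at 5 mg/kg and 11.90, 11.88 and 11.87 at 500 mg/kg. The difference was -0.48 ± 0.11 (SE, adjusted p = 0.0194), and 2 dimmer probe sets were lower by -0.40 and -0.27 without passing. Scn3a, the Nav1.3 sodium channel, read 7.99, 8.07, 8.29 and 8.24 against 8.45, 8.79 and 8.74, a difference of -0.51 ± 0.11 (SE). Both depend on the array left out. With 500 mg/kg replicate 4 kept, their differences were 0.55 and 0.17, the opposite sign, and neither passed.

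The others of the 14 with the largest negative differences were Ston2, an endocytic adaptor for synaptotagmin, at -0.74, the orphan nuclear receptor gene Nr2f6 at -0.66, C1galt1, which extends O-linked glycans, at -0.59, the cadherin gene Cdh22 at -0.55 and Tfeb, a transcription factor of lysosomal genes, at -0.54. Fbxl6 differed by -0.50, Med1, a Mediator subunit, by -0.49 and Wdr54 by -0.48. When each of the 7 arrays was left out in turn, Fbxl6 passed in 0 fits and Ston2, Tfeb and Med1 in 1 each. C1galt1 passed in 3 of these fits, Cdh22 in 4 and Wdr54 in 5. Other probe sets gave -0.02 for Med1, -0.12 and -0.09 for C1galt1 and -0.47 for Cdh22, none passing. For Nr2f6 all 3 arrays at 500 mg/kg read 7.17 to 7.37, above the vehicle range of 6.68 to 7.09, and 5 mg/kg read 6.25 to 6.77. Whether Nr2f6 differs between 500 mg/kg and vehicle was not tested. Nr2f6 passed in 2 of the 7 fits that leave out 1 array, and another probe set for it gave -0.16 without passing.

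The same contrast was looked at in arrays that it does not use. In the comparison of 20 with 200 mg/kg, which shares no array with it, all 59 higher genes were also higher at 20 mg/kg, by a median of 0.37, and 31 of them passed. Those 31 are 52.5% of the 59 and 36.9% of the genes higher at 20 mg/kg. Of the 36 lower genes 30 were lower at 20 mg/kg, which is 83.3%, and 8 passed (22.2% of the 36, 11.1% of the genes lower at 20 mg/kg). None passed in the opposite direction. Over all genes, 64.3% of those above 0 and 68.4% of those below 0 kept their sign.

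At 20 against 200 mg/kg 0.823% of genes passed as higher and 0.705% as lower, and over probe sets 413 (2.22%) and 164 (0.881%). Of the 283 probe sets higher at 5 mg/kg, 281 were higher at 20 mg/kg and 201 passed there. Of the 74 lower ones, 67 were lower and 23 passed. The 2 comparisons share the normalization and the estimate of the spread, and their Gapdh and beta-actin ratios differ in the same direction. Across genes, which are not independent replicates, their differences correlated at Pearson r = 0.46 and Spearman rho = 0.45. The difference between the 2 contrasts passed for 0 probe sets in limma, with 533 at an unadjusted p under 0.05.

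The genes differed in how far they followed this. Rgs5 differed by 0.75 between 20 and 200 mg/kg, Syt1 by 1.04, Cyria by 1.05 and Rasgrp1 by 0.86, and all 4 passed there. Rap1gds1 and Med1 passed as lower at 20 mg/kg, by -0.48 and -0.41. Lst1, at 0.07, Col15a1, at 0.01, and Fbxl6, at 0.00, had almost no difference between 20 and 200 mg/kg.

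**Figure D3:**
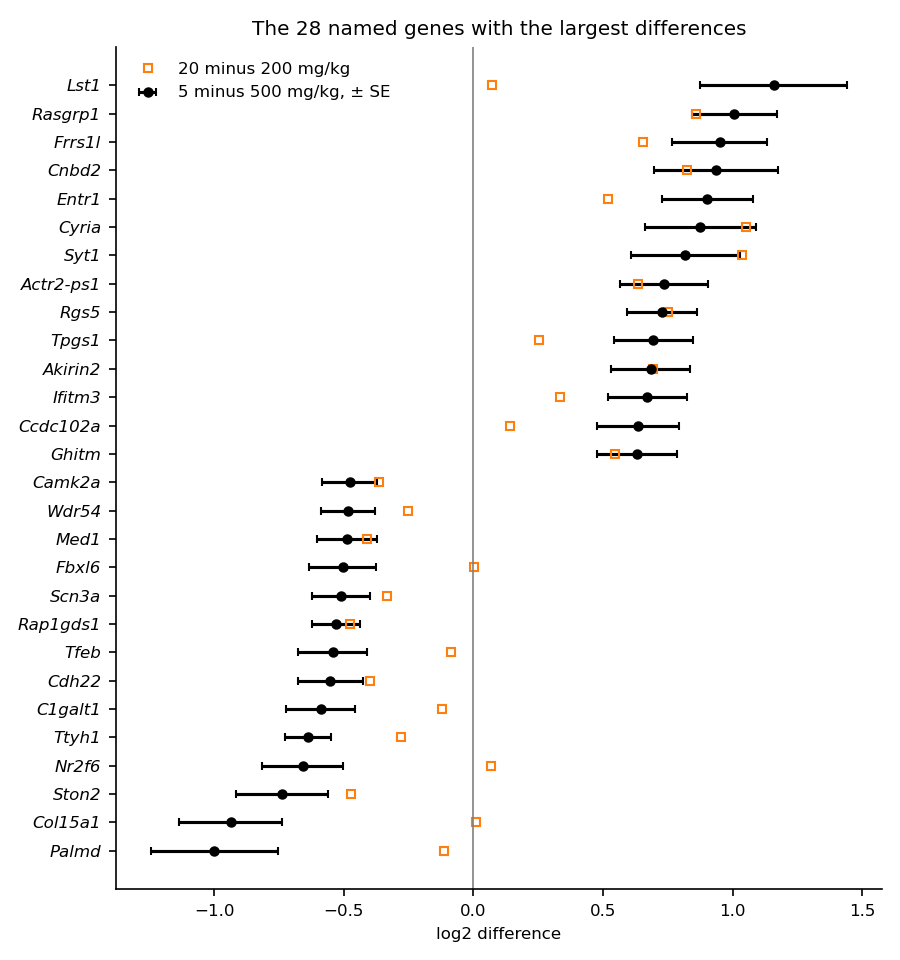
Log2 difference of 28 named genes between 5 and 500 mg/kg (black, with the standard error of the fit) and between 20 and 200 mg/kg (orange squares, other arrays). Rasgrp1, Cyria, Syt1 and Rgs5 lie at like values in both, and Lst1, Nr2f6, Col15a1 and Fbxl6 lie near 0 between 20 and 200 mg/kg.

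With vehicle counted as 0 mg/kg, the levels of the genes that passed did not follow the order of the doses. For 56 of the 59 higher genes the vehicle mean was nearer to 500 than to 5 mg/kg, and for 30 of the 36 lower genes. Over all genes the vehicle mean was nearer to 500 mg/kg in 60.6%. Among the higher genes, 20 mg/kg was nearer to 5 mg/kg in 59, 50 mg/kg in 43, and 200 mg/kg was nearer to 500 mg/kg in 53. Among the lower genes the counts were 30, 23 and 31. The share over all genes was taken for vehicle only. With the 500 mg/kg mean set at 0 and the 5 mg/kg mean at 1, the median place of the higher genes was 1.001 at 20 mg/kg, 0.65 at 50 mg/kg, 0.22 at 200 mg/kg and -0.03 in vehicle. For the lower genes it was 0.76, 0.67, 0.30 and 0.16. Without vehicle these medians followed the dose, except that 5 and 20 mg/kg were level in the higher genes. The Gapdh ratio put the groups in nearly the same order, and its part in the result was not tested beyond the fits that follow.

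With the Gapdh ratio of each array as a covariate in limma, 0 probe sets passed, with 970 at an unadjusted p under 0.05. With the beta-actin ratio 0 passed, with 969. Of the 95 genes, 92 kept their sign with the Gapdh ratio and 95 with the beta-actin ratio, and the median difference in the called direction went from 0.47 to 0.25 and 0.34. Rasgrp1 went from 1.01 to 0.38 and 0.70. Syt1 turned to -0.34 and Cyria to -0.01 with the Gapdh ratio, and Syngr3, a synaptic vesicle protein chosen after its values were seen, to -0.02. Some differences held or grew. Eef1a2 went from 0.61 to 0.57 and 0.64, Faim2 from 0.60 to 0.63 and 0.75, and Dlg2 from 0.62 to 0.80 and 1.08. Eef1a2, Faim2 and Dlg2 were picked here after their values were seen. Standard errors rose from 0.16 to 0.23 and 0.28 for Rasgrp1, and from 0.10 to 0.17 in both fits for Eef1a2. Of the 95 genes, 22 kept their sign with an unadjusted p under 0.05 in limma with the Gapdh ratio, and 32 with the beta-actin ratio. What the count of 0 passing owes to the larger standard errors was not tested. Each ratio lay fully apart between the 2 doses, so within the 7 arrays ratio and dose cannot be told apart.

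Most higher probe sets were not the brightest of their gene, a pattern looked for after the data were seen. Of 236 named probe sets higher at 5 mg/kg only 59, which is 25%, were the brightest of their gene, against 74.7% of all named probe sets tested. Of the 48 lower ones 36, which is 75%, were the brightest. In all, 216 genes had any probe set that was higher (2.12%) and 48 any that was lower (0.470%), and 157 genes were higher only through a dimmer probe set. For those genes the dimmer probe sets differed by a median of 0.66 and the brightest by 0.07, with 108 of the brightest above 0 and 49 below. These genes were taken because a dimmer probe set passed as higher and the brightest did not. A gap between the 2 medians follows from that choice.

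Eif4h is an initiation factor of translation. Its dimmer probe set read 6.97, 6.87, 7.83 and 7.69 at 5 mg/kg and 4.31, 5.78 and 5.77 at 500 mg/kg, a difference of 2.05 ± 0.36 (SE, adjusted p = 0.00357). The 500 mg/kg arrays all lay under 5.99, the lowest mean level a probe set needed for testing, so the size of that difference rests on dim signal at 500 mg/kg. The brightest probe set of Eif4h differed by 0.25 and did not pass. App, the amyloid precursor protein gene, read 9.29, 9.51, 9.62 and 9.24 against 8.37, 8.30 and 8.26 on a dimmer probe set, a difference of 1.10 ± 0.21 (SE), and its brightest gave -0.03.

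Gad1, which makes GABA from glutamate, differed by 1.19 ± 0.24 (SE) on a dimmer probe set and by 0.02 on the brightest. Vps41, of the complex that fuses vesicles with lysosomes, differed by 1.46 and 0.17, and Prkacb, a catalytic subunit of protein kinase A, by 1.42 and 0.09. Klc1, a kinesin light chain, differed by 1.07 on a dimmer probe set and by -0.18 on the brightest. These 6 genes were chosen after their values were seen. The 177 dimmer probe sets that were higher had a median level of 7.62 against 9.54 for the brightest of the same genes, and 176 of them were also higher at 20 than at 200 mg/kg, with 133 passing.

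Over all 3466 dimmer probe sets tested, passed or not, the median difference was 0.06 and 59.9% were above 0, while the brightest probe sets of the same genes had a median of -0.02 and 45.1% above 0. Where along a transcript each probe set lies was not analysed here, so whether the dimmer ones lie farther from the 3' end was not tested. Between 20 and 200 mg/kg the shares were alike, with 84 of 339 higher probe sets (24.8%) and 72 of 101 lower ones (71.3%) the brightest of their gene. Of the 95 genes 37 had another tested probe set, and for 16 of those 37 another probe set had the opposite sign. Eprs1, a lower gene by -0.32, had a dimmer probe set higher by 0.68, both passing.

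**Figure D4:**
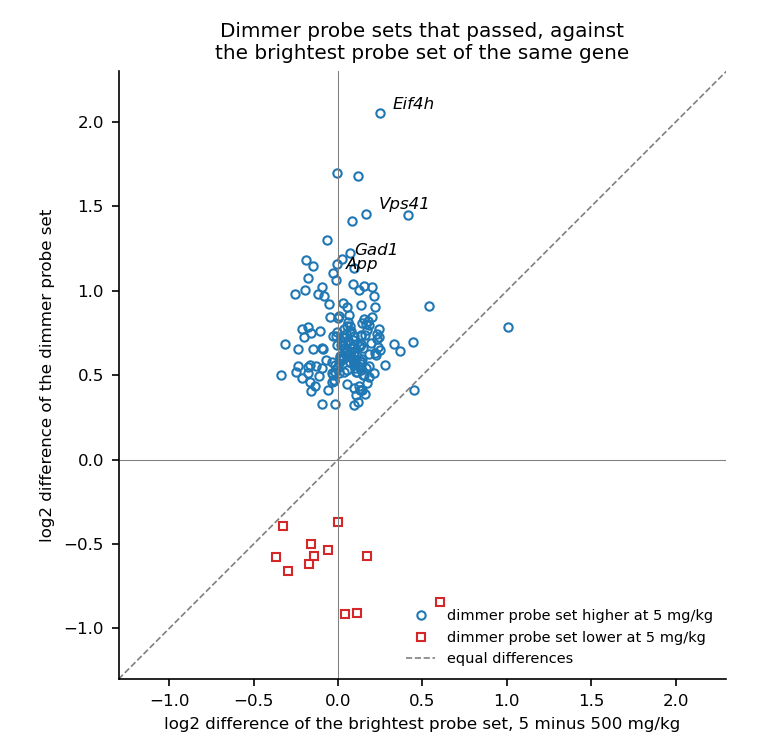
Log2 difference between 5 and 500 mg/kg of each dimmer probe set that passed (vertical axis) against that of the brightest probe set of its gene (horizontal axis), with a dashed line of equal differences. The 177 higher ones (blue circles) crowd around 0 on the horizontal axis, with Eif4h at 2.05 on the vertical axis. Points were chosen by the vertical value, so larger values on that axis follow in part from the choice.

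Genes of D-serine handling did not pass at either end. Phgdh, the first enzyme of serine synthesis, differed by 0.17 ± 0.12 (SE, adjusted p = 0.603) and Shmt2, which converts serine and glycine, by 0.05 ± 0.10. The transporter Slc7a10, through which D-serine leaves and enters astrocytes and neurons, read 7.14, 6.71, 7.04 and 7.13 at 5 mg/kg and 7.31, 7.16 and 7.57 at 500 mg/kg. Its groups did not overlap, and its difference of -0.35 ± 0.15 did not pass (adjusted p = 0.302). Slc1a4, another neutral amino acid carrier, differed by -0.31 and the glycine transporter gene Slc6a9 by 0.09. Srr, serine racemase, has no probe set under that symbol, and Dao, D-amino acid oxidase, was too dim to be tested. Of 9 measured genes in the 2 lists of D-serine handling and transport, 0 passed in limma, and Slc7a10 alone had an unadjusted p under 0.05.

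Of 5 measured NMDA receptor subunits 0 passed in limma, 1 of them (Grin2a) with an unadjusted p under 0.05, with a median difference of -0.13. Grin2a read 9.25, 9.18, 9.17 and 8.80 against 9.68, 9.36 and 9.43, so that the groups did not overlap, and its difference was -0.39 ± 0.15 (SE, adjusted p = 0.225). Grin1, the obligatory subunit, differed the other way by 0.23 ± 0.12, Grin2b by 0.05 and Grin3a by -0.38. With the Gapdh or the beta-actin ratio as covariate the Grin1 difference was -0.03 or -0.02, the opposite sign. AMPA receptor subunits and their auxiliary proteins had a median of -0.12 over 12 measured members, of which Frrs1l alone passed. The channel subunits Gria1 and Gria2 differed by -0.20 and -0.11, and the auxiliary protein Cacng3 by 0.61 ± 0.20 (SE, adjusted p = 0.122). Kainate and metabotropic glutamate receptors had 0 of 6 and 0 of 5 members passing, and GABA-A receptor subunits 0 of 8, with Gabra4 at 0.49 (adjusted p = 0.0744).

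Around the receptor, 1 scaffold and 1 kinase subunit passed, in opposite directions. Of 13 measured postsynaptic scaffolds Dlg2, PSD-93, alone passed, reading 6.46, 6.42, 6.49 and 6.83 at 5 mg/kg and 5.54, 5.94 and 6.31 at 500 mg/kg, a difference of 0.62 ± 0.16 (SE, adjusted p = 0.0422). Dlg2 passed in 1 of the 7 fits that leave out 1 array. Its 500 mg/kg arrays at 5.54 and 5.94 lay under 5.99, the lowest mean level needed for testing. The scaffold list had 10 of 13 members below 0. Of 12 calcium and calmodulin signalling genes Camk2a alone passed, and 8 were below 0. Camk2b differed by -0.17 and the calcineurin subunits Ppp3ca and Ppp3cb by -0.25 and -0.15, none passing, and Ppp3ca was at 0.09 and 0.15 with the Gapdh and the beta-actin ratio as covariate. Over all genes tested the median difference was -0.01 and 47.2% were above 0.

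On the presynaptic side, 3 of 18 vesicle release genes passed. Syt1 read 9.40, 10.04, 9.91 and 9.66 at 5 mg/kg and 8.77, 9.01 and 9.02 at 500 mg/kg, a difference of 0.82 ± 0.21 (SE, adjusted p = 0.044). Svop, a transporter-like vesicle protein, was higher by 0.61, and Cplx2, complexin 2, which clamps and promotes fusion, was lower by -0.40. Svop and Syt1 each passed in 1 of the 7 fits that leave out 1 array, and Cplx2 in 2. Of 15 vesicle endocytosis genes Clta was higher and Ston2 lower, and Amph, at 0.58, did not pass (adjusted p = 0.105). The motor subunit Dync1li1 was higher by 0.42 ± 0.09 (SE), 1 of 15 measured motor genes, and the endosomal Rab4a was lower by -0.32, 1 of 21 Rab genes. Here and in all lists each gene stands for its brightest probe set. Dimmer probe sets of Rab15, Rab11b, Rab3a, Rab5a and Rab5b passed as higher, by 1.01, 0.74, 0.54, 0.52 and 0.52. The brightest probe sets of these Rab genes differed by -0.20, 0.13, 0.10, -0.25 and -0.02, none passing. Dimmer ones of Cplx1, Nsf, Klc1 and Kif5c also passed as higher, with the brightest at 0.18, 0.09, -0.18 and -0.20. These genes were chosen after their values were seen. Over all genes 2.12% had any probe set that was higher, and that share was not taken within the lists.

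No measured immediate-early gene passed at 96 hours. Of 14 measured immediate-early genes 0 passed in limma, with a smallest unadjusted p of 0.117, and 7 were above 0, with Fos at -0.33 ± 0.32 (SE), Arc at -0.26 ± 0.22 and Egr1 at -0.08 ± 0.18. With 500 mg/kg replicate 4 kept these 3 were at 0.11, 0.19 and 0.52, the opposite sign, and did not pass. Bdnf, the neurotrophin that neuronal activity induces, differed by 0.32 ± 0.27 (SE, adjusted p = 0.663), and by -0.03 with the Gapdh ratio as covariate.

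Among genes of energy metabolism and protein turnover few passed, with most members slightly above 0. Of 27 oxidative phosphorylation genes 21 were above 0, with a median of 0.10, and Atp5pb, of the ATP synthase stalk, passed at 0.36 ± 0.08 (SE). Of 26 proteasome subunits 22 were above 0, with a median of 0.08, and Psma5 passed at 0.23 ± 0.06. Glycolysis genes were above 0 in 12 of 14 and 0 passed. Dnm1l, the mitochondrial fission GTPase, passed at 0.36 ± 0.09, and the fusion gene Opa1, at 0.44, did not. In the 7 fits that leave out 1 array Atp5pb passed in 4, Dnm1l in 1 and Psma5 in 0. Splicing and RNA-binding genes were below 0 in 19 of 25, with 0 passing and a median of -0.08, and chromatin regulators in 17 of 24, with 0 passing and a median of -0.06. Between 20 and 200 mg/kg the medians were 0.08 for oxidative phosphorylation, 0.01 for the proteasome and -0.15 for splicing.

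Some marker lists of brain regions and glia lay mostly below 0 without a member passing. All 11 measured markers of striatal projection neurons were below 0, with a median of -0.33, among them Rgs9 at -0.68 ± 0.59 (SE) and Pde10a at -0.58 ± 0.44. Neither direction held in each fit: with the Gapdh ratio as covariate Rgs9 was at 1.13 and Pde10a at 0.79, and with the beta-actin ratio at 0.43 and 0.30, without passing. Their summed intensity was 2848 to 8696 at 5 mg/kg and 4755 to 8260 at 500 mg/kg, so the ranges overlapped, and the smallest unadjusted p in limma was 0.2. Of 12 myelin markers 11 were below 0, with a median of -0.28 here and -0.42 between 20 and 200 mg/kg. Summed myelin intensity was 15711 to 19426 at 5 mg/kg and 19622 to 24031 at 500 mg/kg, which do not overlap. The sums of 11 of the 47 lists did not overlap between the doses, 5 of them higher and 6 lower at 5 mg/kg. Mobp differed by -0.44 ± 0.24 (SE, adjusted p = 0.421), Opalin by -0.45 ± 0.39 and Mbp, myelin basic protein, by -0.09 ± 0.09.

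Oligodendrocyte precursor markers were below 0 in 6 of 7, with Pdgfra at -0.32 and Olig1 at -0.34. Gfap, the filament of astrocytes, read 10.10, 10.23, 10.05 and 10.54 at 5 mg/kg and 9.72, 9.35 and 9.72 at 500 mg/kg. The 2 doses did not overlap, the difference of 0.64 ± 0.22 did not pass (adjusted p = 0.149), and 6 of 11 astrocyte markers were above 0. Brain endothelium had 0 of 11 passing, with Cldn5, of the tight junction, at 0.46 ± 0.13 (SE, adjusted p = 0.0646). Ttr, the choroid plexus transcript, was low on all 7 arrays, 6.31 to 6.85 against 6.78 to 7.10. The part of tissue makeup in the genes that passed was not tested.

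**Figure D5:**
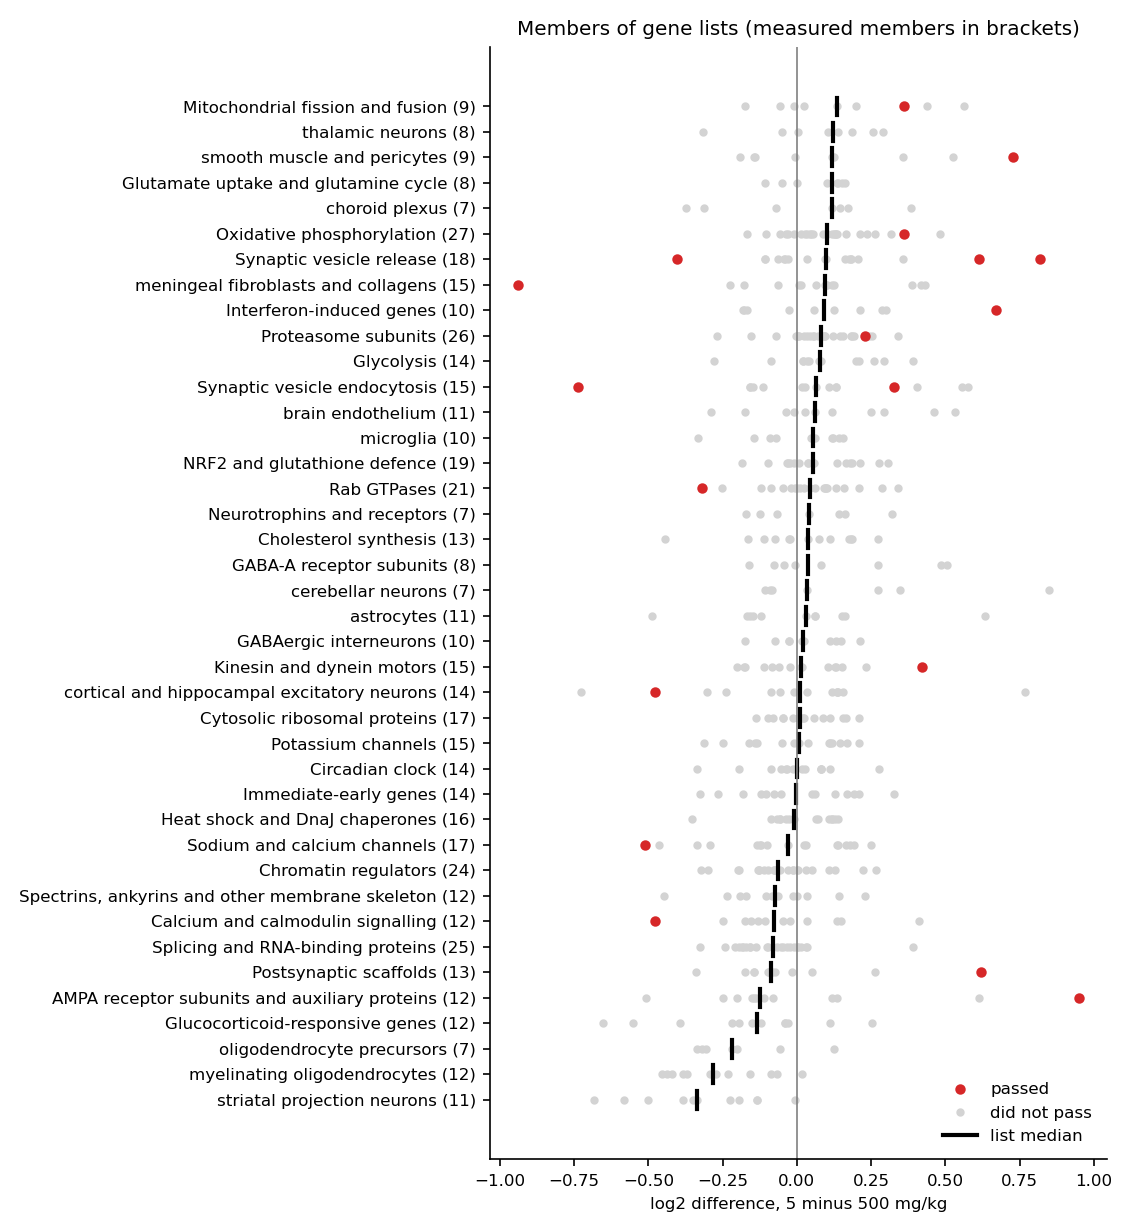
Log2 difference between 5 and 500 mg/kg of each measured member of 40 gene lists with at least 7 members measured: grey points did not pass, red points passed and black bars are list medians. Striatal, myelin and oligodendrocyte precursor markers have the lowest medians, -0.33, -0.28 and -0.22, with no red points.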

How the data were processed

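Each deposited value is a linear intensity of 1 probe set, produced in GCOS, Affymetrix's array software, according to the submitters' processing notes. Software version and scaling target: not given in the sources used here. The arrays' medians of log2(intensity + 16) spanned 0.73 as deposited, so 23 arrays were quantile normalized after 500 mg/kg replicate 4 was left out. On the scale log2(intensity + 16) folds of dim transcripts are understated. The 57 Affymetrix controls and the 40% with the lowest mean (under 5.99) were left out, leaving 18625. By the platform annotation 20832 probe sets name a single gene, 436 name several and 9831 name none. Symbols were updated for 20764 through the Entrez ID and 2 through the accession, with 66 kept, against the RefSeq table of GRCr8, used for names only. A gene's value is that of its probe set with the highest mean, with p adjusted over all probe sets.

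A linear model of 6 group means was fitted in limma 3.58.1 (R 4.3.3), with an intensity trend and Benjamini-Hochberg adjustment in each comparison. Control ratios were compared with exact permutation tests. Replicate numbers only name arrays. Labelling batches and scan dates were not used here. The median standard error of a difference was 0.14, and the number of arrays limits the precision. The fit was tested on simulated data.

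The array left out, the arrays compared, the 47 gene lists and the naming rule were chosen with earlier results of these data known. Named are the 14 largest positive and 14 largest negative differences among genes that passed with no overlap of arrays, up to 4 members of each list with a passing member and 2 of the others, and a set of glutamate, activity and glial genes; other names are said to be chosen after their values were seen. Alternatives changed the filter, normalization, pseudocount, moderation, weights, arrays and covariates.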

Additional observations from a re-analysis of the deposited data

Results flagged for a closer look

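Grin1, the obligatory NMDA receptor subunit, had 1 array apart at 5 mg/kg: replicate 3 read 9.28 where the other 3 arrays read 8.98 to 9.03. Dlg2 likewise had replicate 4 at 6.83 where the other 3 arrays at 5 mg/kg read 6.42 to 6.49. These were 2 of 59 groups of 4 arrays looked at, and chance alone sets apart about 1 in 20. Gabra6, a gene of cerebellar granule cells, read 10.73 on the 500 mg/kg array that the comparison leaves out, against 4.40 to 5.98 on the other 23 arrays.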

How the results depend on the processing

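Among the 37 named genes that passed, 5 values over the alternatives reversed: Cyria at -0.013 and Syt1 at -0.34 with the Gapdh ratio as covariate, Camk2a at 0.55 and Scn3a at 0.17 with 500 mg/kg replicate 4 kept, and Rab4a at 0.012 with values as deposited. Of 114 named genes that did not pass, 31 had the opposite sign with the Gapdh ratio, 29 with the beta-actin ratio and 18 with 500 mg/kg replicate 4 kept, none of them passing. With values as deposited, which moves the median difference of all probe sets to 0.30, 2192 probe sets and 999 genes passed between 5 and 500 mg/kg, 99.8% and 99.9% of them higher, and 9726 probe sets between 20 and 200 mg/kg. In the same order the counts were 927, 309 and 1494 with array weights, 739, 227 and 271 with 500 mg/kg replicate 4 kept, and 0, 0 and 0 with either the Gapdh or the beta-actin ratio as covariate. With 1 probe set per gene 26 genes passed, and 64 between 20 and 200 mg/kg; with only the 7 arrays 56 genes passed. Median centring gave 316 probe sets, 89.2% of them higher in place of 79.3%, with 34 lower in place of 74, and 95 lower in place of 164 between 20 and 200 mg/kg. A gene counted through any of its probe sets, a rule chosen after seeing the data, passed in 262 cases. The cause of these differences was not tested, except that fewer arrays or genes entered where stated. Leaving out single arrays gave 126 to 355 probe sets and 23 to 85 genes, and 206 to 703 probe sets between 20 and 200 mg/kg. It gave Gapdh ratio differences of -0.57 to -0.50 and beta-actin differences of -0.74 to -0.58, with exact permutation p of 0.1 or 0.0667, the smallest these designs allow. The difference between the 2 contrasts passed for 0 probe sets in limma in each alternative, with 295 (values as deposited) to 1131 (no filter) at an unadjusted p under 0.05. Total counts of probe sets and genes that passed stayed within 1.5 times under the other alternatives. No paired analysis was possible because each rat received a single dose and the labels pair no rats between doses. The number of arrays, 4 and 3, limits the precision, with a median standard error of 0.14.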
